A study of Saccharomyces pastorianus with 12 samples.

Results

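Carriers of the hexose transporter family that yeast seldom expresses (HXT8, HXT10, HXT13 and HXT14) and the galactose permease gene GAL2 were followed in the lager yeast Saccharomyces pastorianus, strain CB11, during a brewery propagation. The 5 genes were listed by name and found through the platform annotation, which gave 6 probe sets of 10928: 1 each for HXT8, HXT10, HXT14 and GAL2, and 2 for HXT13. They are 5 of 5635 Saccharomyces cerevisiae genes named on the array. The genes were chosen by name as rarely expressed, with earlier signal levels of these arrays in view, so their levels against background are given as a description and carry no test, while differences between sampling times were tested in a fit across all genes.

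All cells were CB11, grown first with air in an 8 hl vessel and then in a 140 hl vessel. The wort was made of 80% malt and 20% maltose adjunct at 17° Plato, with zinc brought to 0.5 mg per l, a temperature of 20 °C and dissolved oxygen of 7 to 8 mg per l. Samples A, B and C were taken just after inoculation (0h) and at 4, 8 and 30 h, with 1 single-colour array per sample, 12 in all. Nothing in the labels says that A, B and C were separate cultures. A p-value here therefore reflects only how far samples of the same time differed, pooled over the 4 times, and that may be technical variation. CB11 is a hybrid, and the probes were designed on S. cerevisiae, so a signal sums whatever transcripts bound to them.

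Yeast takes up hexoses by facilitated diffusion through a family of related membrane carriers. A few of them, with high or low affinity for glucose, do most of the work on glucose, and their genes are switched by the glucose sensors Snf3 and Rgt2 and by the repressors Rgt1 and Mig1. The remaining members are transcribed weakly under most laboratory conditions, and their roles are less well known. GAL2 encodes the galactose permease, is induced together with the GAL1, GAL7 and GAL10 enzymes of galactose breakdown, and is repressed by glucose.

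The background of each array was the 95th percentile of its 4916 probe sets for Schizosaccharomyces pombe genes, a yeast that should be absent from the vessel. This threshold was a deposited signal of 17.3 to 20.7 on the 0h arrays and was lowest on the 4h arrays, with 4.12 to 5.57. It was 11.9 to 14.6 on the 8h arrays and 12.6 to 14.9 on the 30h arrays. Of the 72 values of the 6 probe sets, 60 exceeded it. The count out of 18 was 11, 15, 16 and 18 in order of time. The values nearest the threshold were HXT13 on 8h C, at 1.004 times it, and HXT8 on 0h B, at 0.937 times it.

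Several features of the arrays moved with time and touch every result below. The SD of log2 signals over the 5503 tested genes was 1.91 to 2.03 on the early (0h and 4h) arrays and 1.21 to 1.33 on the late (8h and 30h) arrays, and Spearman's rho over genes between an early and a late array was 0.205 to 0.402. Changes between early and late times cannot be told apart from this change between the arrays. The median 3′ to 5′ signal ratio of 8 control genes, a measure of transcript integrity, reached 35.5 for array 0h A and 6.96 for array 0h C, whereas it was 1.30 to 2.02 for the other 10 arrays. Signals are relative within an array, so more transcript per cell and a larger share of expressing cells cannot be told apart. No 2 arrays were identical.

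GAL2 was the gene above background on all 12 arrays. In the order A, B, C its deposited signals were 60.5, 61.1 and 51.4 for the 0h arrays, 11.4, 18.5 and 13.003 for the 4h arrays, 201, 159.5 and 103.7 for the 8h arrays, and 233, 207 and 151.4 for the 30h arrays. As multiples of the background threshold the early values were 2.92, 3.53 and 2.69 (0h) and 2.19, 3.33 and 3.16 (4h), and the late values 13.8, 11.5 and 8.70 (8h) and 18.5, 13.9 and 10.9 (30h). Every late array was above every early array on both scales. The share of all genes with this separation was not counted. For a single pair of a late and an early time it was 28.9% to 39.1% of tested genes after quantile normalisation. On the early arrays GAL2 was brighter than 5.80% to 25.4% of tested genes, and on the late arrays brighter than 82.0% to 94.6% of them.

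HXT8, a carrier whose substrate in the cell is little studied, began near the threshold. It stood at 1.31, 0.937 and 1.33 times the threshold on the 0h arrays and 2.38, 2.20 and 2.12 times on the 4h arrays, so it passed on 5 of the 6 early arrays. It reached 8.59, 11.3 and 5.69 times the threshold at 8h, and 24.3, 13.2 and 19.3 times at 30h. The 4 times followed each other without overlap on this scale, and the share of all genes that did so was not counted. After quantile normalisation its 4h and 0h arrays overlapped, as did its 30h and 8h arrays. Its deposited signals were 27.1, 16.2 and 25.4 (0h), 12.4, 12.3 and 8.72 (4h), 125, 157 and 67.8 (8h) and 306, 197 and 268 (30h). On that scale the 4h arrays, whose threshold was also the lowest, lay below the 0h arrays.

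HXT14, a carrier tied to galactose rather than glucose in growth tests of S. cerevisiae, was at 2.23, 0.449 and 1.24 times the threshold on the 0h arrays and 0.753, 1.14 and 1.48 times on the 4h arrays. It then reached 9.09, 10.9 and 6.45 times (8h) and 23.2, 15.98 and 15.8 times (30h). Every late array was above every early one, as for GAL2, and the share of all genes doing so was not counted. On a log scale the 0h arrays spread more than those of any other time, with 0h A, the array with the highest 3′ to 5′ ratio, on top and 0h B lowest. Its deposited signals were 46.1, 7.77 and 23.7 (0h), 3.93, 6.36 and 6.08 (4h), 132, 152 and 76.8 (8h) and 292, 238 and 219.9 (30h).

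HXT10, which can carry hexoses when forced to high expression, passed the background on the fewest arrays, 8 of 12. It stood at 1.36, 0.182 and 0.603 times the threshold on the 0h arrays and 1.08, 0.721 and 0.912 times on the 4h arrays, above it on 1 of 3 each time. The late multiples were 4.19, 4.79 and 4.07 (8h) and 9.09, 8.69 and 7.32 (30h). All 6 late arrays passed, and the 30h arrays lay above the 8h arrays. The median level over all 5635 genes also went from 3.2 times the threshold at 8h to 4.7 times at 30h. After quantile normalisation the 30h and 8h arrays of HXT10 overlapped. Its deposited signals were 28.3, 3.14 and 11.5 (0h), 5.63, 4.01 and 3.76 (4h), 60.9, 66.6 and 48.5 (8h) and 114.5, 129.6 and 102 (30h), so 0h A was again the highest and 0h B the lowest of the 0h arrays. HXT10 was brighter than 0.400% to 9.18% of tested genes on the early arrays and than 55.9% to 80.6% on the late ones.

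HXT13, linked in S. cerevisiae to the uptake of the sugar alcohols mannitol and sorbitol, behaved differently and stayed close to background throughout. Its multiples of the threshold were 0.569, 0.821 and 1.09 (0h), 2.66, 2.84 and 1.92 (4h), 0.770, 1.35 and 1.004 (8h), and 1.51, 1.68 and 1.61 (30h). The 4h arrays were the highest on this scale and the 0h and 8h arrays overlapped. Its deposited signals were 11.8, 14.2 and 20.7 (0h), 13.9, 15.8 and 7.90 (4h), 11.2, 18.8 and 11.96 (8h), and 19.0, 25.1 and 22.3 (30h). It passed on 1, 3, 2 and 3 arrays at 0, 4, 8 and 30 h, and was brighter than 1.87% to 12.1% of tested genes on every array.

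A second HXT13 probe set, with an ending that marks probes shared with other sequences, was also near the threshold. Its multiples of the threshold were 1.19, 0.474 and 1.37 (0h), 2.41, 1.14 and 2.005 (4h), 1.30, 1.25 and 0.609 (8h) and 2.56, 1.95 and 2.09 (30h), so it was above background on 10 of 12 arrays. It was brighter than 12.1% to 25.6% of tested genes at 30h, where the first set was brighter than 8.63% to 8.80%. Its probes may also read close relatives such as HXT15 and HXT17.

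**Figure D1:**
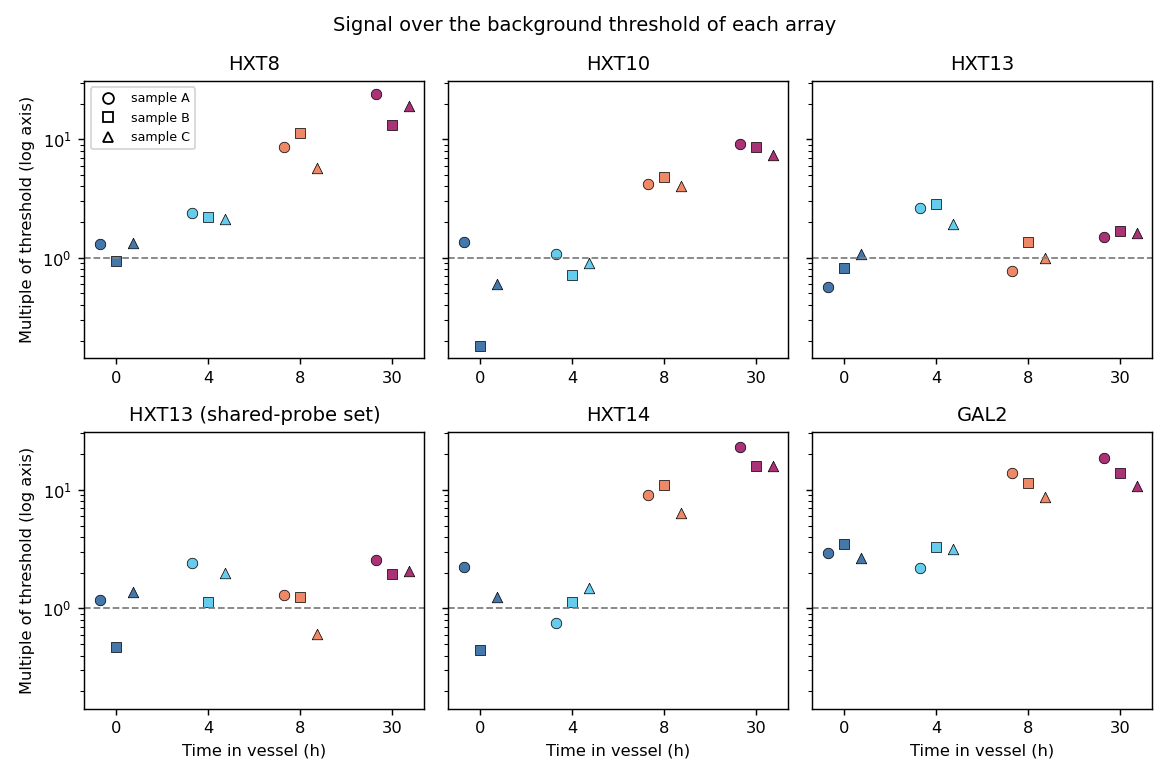
Signal of each probe set divided by the background threshold of its array (log axis), by hours in the vessel, with 1 point per array and the shape giving the sample letter. The dashed line is the threshold. GAL2, HXT8, HXT10 and HXT14 lie higher on all 6 late arrays than on any early array, while both HXT13 probe sets stay between 0.474 and 2.84 times the threshold. The share of all genes with that separation was not counted.

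**Figure D2:**
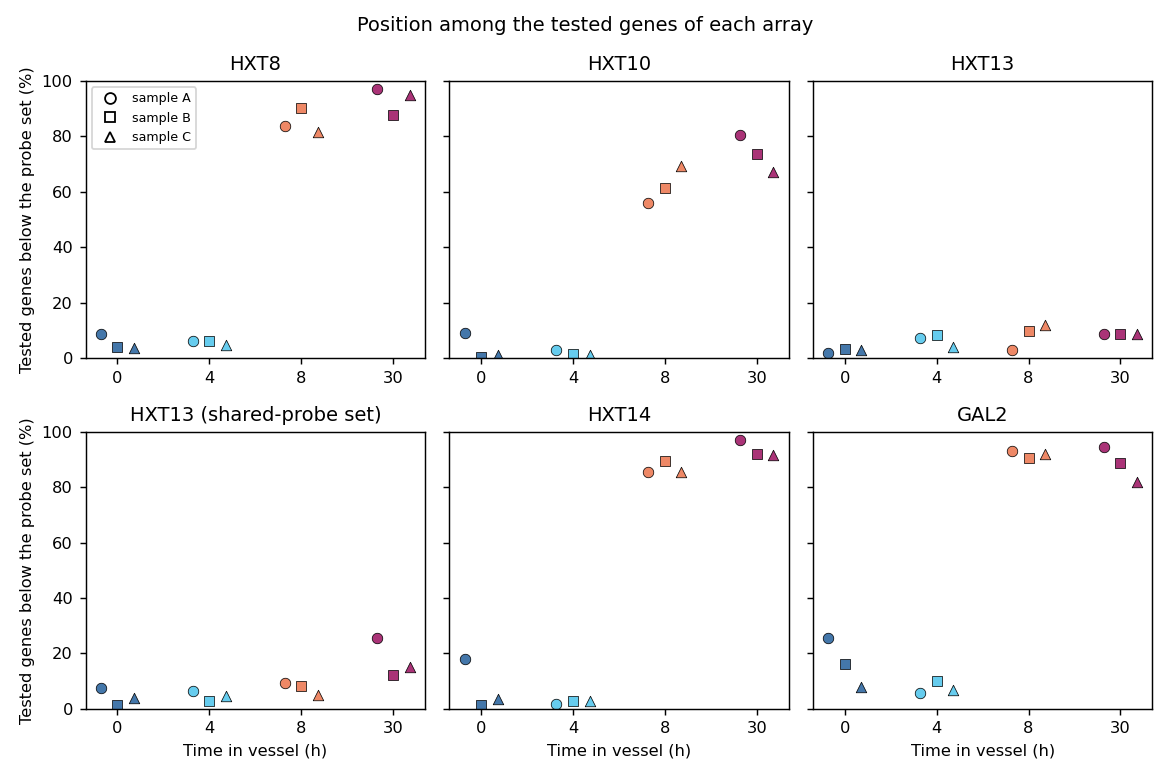
Share of the 5503 tested genes with a lower signal than each probe set on the same array, by hours in the vessel, with 1 point per array. HXT8 moved from 3.80% to 8.56% on the early arrays to between 81.6% and 97.3% on the late ones. The first HXT13 probe set did not exceed 12.1%, and the shared-probe set reached 25.6%.

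Between 4h and 8h, 4 of the 5 genes rose and HXT13 did not pass the test. The comparison called 30.7% of all tested genes higher and 33.9% lower, and 37.1% had 8h arrays wholly above the 4h arrays, so many genes moved. After quantile normalisation HXT14 rose by 5.07 ± 0.47 on the log2 scale (log2 difference ± SE, 3 arrays per time, adjusted p = 9.2e-07, limma). GAL2 rose by 4.57 ± 0.35 (adjusted p = 1.94e-07), HXT8 by 4.19 ± 0.35 (adjusted p = 3.61e-07) and HXT10 by 4.03 ± 0.54 (adjusted p = 2.04e-05). At 4h HXT10 was above background on 1 of 3 arrays and HXT14 on 2 of 3, so the sizes of their differences rest partly on signals at background and are not exact, and HXT10 passed the filter on dim genes only through the late arrays. The differences of GAL2 and HXT8, above background on all 6 arrays, were larger than those of 98.5% and 97.7% of tested genes. HXT13 was at 0.11 ± 0.45 (adjusted p = 0.85), with a 95% interval of -0.85 to 1.06.

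Low starting levels in general went with higher late signals on these arrays. Of the 759 tested genes whose 0h mean was at or below that of GAL2, 57% were called higher at 8h than at 4h. The 759 genes had a median difference of 1.44 and an upper decile of 4.49. HXT8 (4.19) and HXT10 (4.03) lay below that decile, and GAL2 (4.57) and HXT14 (5.07) above it. At 30h against 4h, 60.2% of the 759 were called higher. Of 301 genes that missed the background on at least 1 array at 4h, 145 (48.2%) were above it on every 8h array, as HXT10 and HXT14 were. Over the 301 genes the median level at 8h was 1.25 times the threshold and the 90th percentile 6.97 times, against a geometric mean of 4.34 times for HXT10 and 8.61 times for HXT14.

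The size of the rise depended on the scale. With each array centred on its S. pombe probe sets, HXT14 rose by 3.11, HXT10 by 2.40, GAL2 by 2.09 and HXT8 by 2.003 on the log2 scale (adjusted p from 2.5e-05 to 0.000879, limma), and HXT13 fell by 1.14 (adjusted p = 0.0322). On that scale the median tested gene was at -2.60, and 257 genes were called higher and 4326 lower. On the deposited scale, with a median gene at -1.28 and 603 genes called higher and 2842 lower, the same 4 genes rose by 3.33 (HXT8) to 4.44 (HXT14). With a pseudocount of 100 added to the signals they rose by 1.14 (HXT10) to 2.28 (GAL2). Median centring called HXT13 higher (1.32, adjusted p = 0.0161), so no direction is given for it. On every one of these scales HXT10 was a tested gene only through its late arrays.

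**Figure D3:**
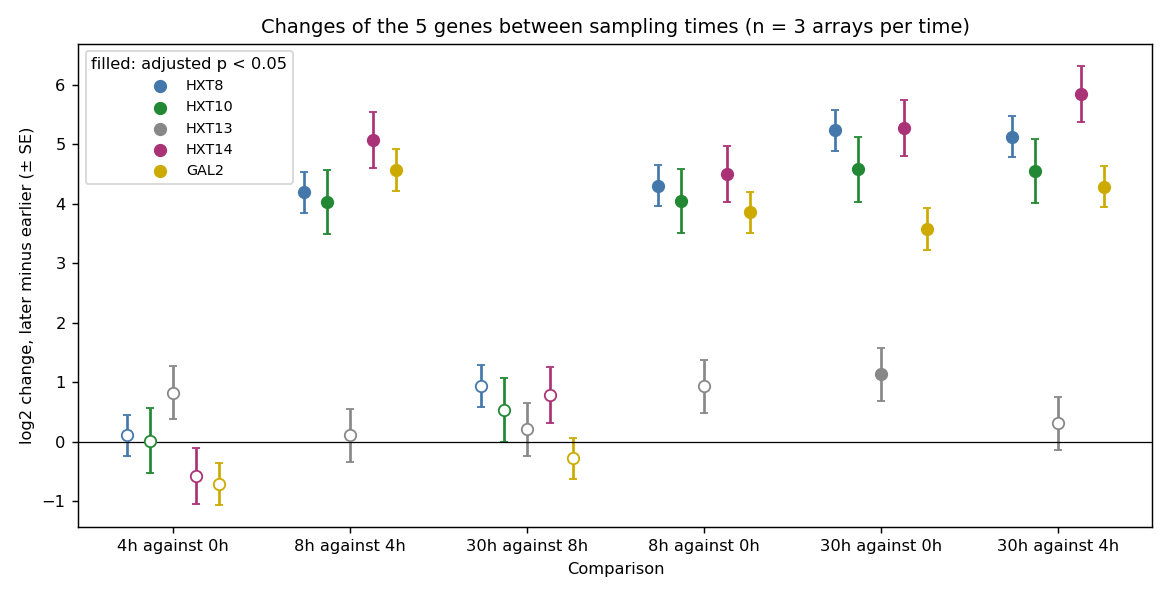
Difference in normalised log2 signal between each pair of times for the 5 genes (later minus earlier), with bars giving the limma standard error and 3 arrays per time. Filled points passed an adjusted p of 0.05. HXT8, HXT10, HXT14 and GAL2 differed by 3.57 to 5.85 in all 4 comparisons of a late with an early time, and none of the 5 genes passed at 4h against 0h or 30h against 8h. Only its late arrays brought HXT10 past the filter on dim genes.

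Against the inoculum the same genes were higher at both late times. At 8h against 0h, HXT14 rose by 4.50 ± 0.47, HXT8 by 4.30 ± 0.35, HXT10 by 4.05 ± 0.54 and GAL2 by 3.85 ± 0.35 (adjusted p of 2.34e-05 or lower, limma), in a comparison that called 29.6% of tested genes higher and 32.9% lower. The 8h arrays of all 4 lay above the 0h arrays, as for 28.9% of tested genes. At 30h against 0h, with 31.2% called higher and 33.3% lower, the differences were 5.27 ± 0.47 for HXT14, 5.23 ± 0.35 for HXT8, 4.57 ± 0.54 for HXT10 and 3.57 ± 0.35 for GAL2 (adjusted p of 6.31e-06 or lower). At 30h against 4h, with 32.4% called higher, 34.5% lower and 39.1% with 30h arrays wholly above the 4h arrays, they were 5.85 ± 0.47, 5.12 ± 0.35, 4.56 ± 0.54 and 4.29 ± 0.35 (adjusted p of 5.66e-06 or lower). These comparisons share arrays and are not separate evidence, and HXT10 passed the filter on dim genes only through the late arrays.

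HXT13 did not pass in 2 of these 3 comparisons. It was at 0.93 ± 0.45 at 8h against 0h (adjusted p = 0.0838, limma) and at 0.31 ± 0.45 at 30h against 4h (adjusted p = 0.555). With median centring it was called higher in both (2.18 and 1.45, adjusted p = 0.000747 and 0.00943), so that all 5 members were then called. At 30h against 0h it rose by 1.13 ± 0.45 (adjusted p = 0.0382), with its 3 arrays of 30h above those of 0h, as for 31.1% of tested genes. That call ended in 12 of 23 alternatives, among them any single 0h, 4h or 30h array left out (adjusted p from 0.0528 to 0.0737, limma). It also ended on the deposited scale (0.54, adjusted p = 0.36). With 0h A and C both left out the difference was 0.90. The shared-probe set gave 1.503 for the same comparison (adjusted p = 0.00993) and 1.33 at 30h against 4h (adjusted p = 0.0183).

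Within the early pair of times no member passed the test. The 4h against 0h comparison called 23.5% of tested genes, 11.8% in each direction, and 0 of these 5, none of which had an unadjusted p under 0.05. HXT13 was at 0.82 ± 0.45 (adjusted p = 0.196, limma), with 4h arrays wholly above the 0h arrays as for 27.7% of tested genes. The others were HXT8 at 0.11 ± 0.35 (adjusted p = 0.848), HXT10 at 0.018 ± 0.54 (adjusted p = 0.982), HXT14 at -0.57 ± 0.47 (adjusted p = 0.404) and GAL2 at -0.72 ± 0.35 (adjusted p = 0.151). The 95% intervals ran from -1.14 to 1.17 for HXT10 and from -1.46 to 0.031 for GAL2, so changes of that size are not excluded. Without 0h A, the change of HXT14 was 0.10, and with 0h A and C both left out HXT10 was called higher (1.29, adjusted p = 0.0451). On the deposited scale GAL2 and HXT14 were called lower (-2.04 and -1.94), where the median gene was at -1.17, and with S. pombe centring HXT13 was called higher (1.66, adjusted p = 0.0137), where the median gene was at 0.82.

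Within the late pair, 4 of the 5 genes had higher means at 30h but none passed. This comparison called 3.63% of tested genes, 0.909% higher and 2.73% lower. HXT8 was at 0.93 ± 0.35 (adjusted p = 0.175, unadjusted p = 0.0177, limma), HXT14 at 0.78 ± 0.47 (adjusted p = 0.419), HXT10 at 0.53 ± 0.54 (adjusted p = 0.652), HXT13 at 0.20 ± 0.45 (adjusted p = 0.847) and GAL2 at -0.28 ± 0.35 (adjusted p = 0.723). HXT14 had its 30h arrays wholly above its 8h arrays, as 11.6% of tested genes did. HXT8 had the only interval of the 5 that left out 0, at 0.19 to 1.68.

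Normalised log2 levels put the times in the order 0h, 4h, 8h, 30h for HXT8 (3.88 ± 0.44, 3.99 ± 0.14, 8.18 ± 0.36 and 9.11 ± 0.70, mean ± SD, n = 3) and for HXT10 (2.91 ± 1.43, 2.93 ± 0.36, 6.96 ± 0.28 and 7.49 ± 0.34). HXT14 ran 4h, 0h, 8h, 30h (3.22 ± 0.25, 3.79 ± 1.23, 8.29 ± 0.20 and 9.06 ± 0.52), and GAL2 ran 4h, 0h, 30h, 8h (4.24 ± 0.28, 4.95 ± 0.61, 8.52 ± 0.62 and 8.80 ± 0.18). For these 4 genes the neighbours within the early pair and within the late pair did not differ in the test, and the step between the pairs did. Of the 4, HXT10 entered the test only through its late arrays. HXT13 moved from 3.27 ± 0.24 at 0h to 4.10 ± 0.34, 4.20 ± 0.74 and 4.41 ± 0.011, with no neighbouring times called different. Over the 12 arrays Pearson's r between HXT8, HXT10, HXT14 and GAL2 was 0.950 to 0.986, and between HXT13 and each of them 0.452 to 0.573. These points share the split between early and late arrays, and r is a description.

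The genes with the most similar profiles over the 12 arrays were found in the same way. For HXT8 they were SNZ3, of vitamin B6 synthesis, YPL119C-A and ASG7, a mating type a gene (r from 0.990 to 0.992). For HXT10 they were JLP1, of sulfonate use, SPG3 and the glycerophosphoinositol carrier gene GIT1 (r from 0.988 to 0.990), and for HXT14 they were GIT1, YPL119C-A and SPG3 (r from 0.993 to 0.997). For GAL2 they were the checkpoint gene RAD9, the SUMO activating enzyme gene UBA2 and the spore wall gene LDS2 (r from 0.991 to 0.993). Between 689 and 733 genes had an r above 0.9 with each of these 4, so the profile was common. HXT13 had 2 such genes, YHR078W (0.914) and the actin capping gene CAP2 (0.902), followed by YBR138C (0.897).

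Other genes of galactose use were called in both directions. Of 8 tested between 4h and 8h, 3 were called higher and 4 lower, beside 30.7% and 33.9% of all tested genes. Their median was -1.21, against -0.12 over all tested genes. GAL10, the epimerase gene, rose by 3.75 ± 0.49 (adjusted p = 1.76e-05, limma), and the galactokinase gene GAL1 rose by 3.67 ± 0.45 (adjusted p = 9.23e-06). PGM2, for phosphoglucomutase, fell by 3.23 ± 0.32, and the galactose sensor gene GAL3 fell by 2.73 ± 0.51 (adjusted p of 0.000389 or lower). GAL4, the activator gene, was not analysed here.

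GAL10, like HXT10, missed the background on early arrays, at 0.458 to 1.28 times the background threshold at 4h and 3.42 to 4.34 times at 8h. GAL1 was at 4.90 to 7.14 times at 4h and 8.85 to 12.96 times at 8h. GAL3 dropped from between 13.03 and 16.7 times at 4h to between 0.103 and 1.47 times at 8h, above background on 1 of 3 arrays. GAL10 stayed called higher on the deposited, median-centred and S. pombe-centred scales (2.19 on the last, adjusted p = 0.00169), while GAL1 was not called on the last (0.997, adjusted p = 0.0993). GAL7, the transferase gene, was called higher after quantile normalisation (1.23) but lower with S. pombe centring (-0.99, adjusted p = 0.0439).

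Other steps moved other genes of the galactose list. At 4h against 0h 3 of 8 rose and 0 fell, beside 11.8% of all tested genes in each direction (median 0.75 against 0.024). The 3 were PGM1 by 2.53 ± 0.44, PGM2 by 2.02 ± 0.32 and GCY1 by 1.51 ± 0.25. On the deposited scale, where the median gene was at -1.17, GCY1 was at 0.79 and was not called (adjusted p = 0.183, limma). At 30h against 8h 0 rose and 1 fell, beside 0.909% higher and 2.73% lower over all tested genes. That gene was PGM2, by 2.24 ± 0.32 (adjusted p = 0.000868, limma). At 30h against 0h 3 rose and 3 fell, near the 31.2% higher and 33.3% lower over all tested genes. GAL1 was higher by 4.34 ± 0.45 and GAL10 by 3.21 ± 0.49, beside the 3.57 of GAL2.

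Among the other hexose carriers and the glucose sensors, 7 of 11 tested genes rose and 2 fell between 4h and 8h, with a median of 1.75, beside 30.7% higher and 33.9% lower over all tested genes. HXT5, a carrier of slowly growing cells, rose by 3.50 ± 0.31, HXT15 by 2.64 ± 0.42 and HXT11 by 2.13 ± 0.59, and the high-affinity carrier gene HXT2 fell by 2.41 ± 0.37 (adjusted p of 0.0061 or lower, limma). Each rise was smaller than those of HXT8, HXT10, HXT14 and GAL2, but these differences between genes were not tested. With S. pombe centring 1 of the 11 rose, HXT15 by 1.22 (adjusted p = 0.0467), and 6 fell (median -1.31), where the median tested gene was at -2.60 and 4326 of 5503 were called lower. On that scale HXT5 was at 0.61 (adjusted p = 0.229) and HXT11 at -0.88 (adjusted p = 0.124).

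HXT15, a close relative of HXT13, also began near background. It was above background on 1 of 3 arrays at 0h and again at 4h, and on all late arrays, at 1.45 to 3.74 times the threshold at 8h and 4.50 to 5.23 times at 30h. HXT2 moved the opposite way, from 358 to 422 times the threshold at 4h to 4.30 to 6.93 times at 8h. At 4h against 0h 0 of the 11 rose and 2 fell, beside 11.8% of all tested genes in each direction. At 30h against 0h 4 rose and 3 fell, near the 31.2% higher and 33.3% lower over all tested genes. At 30h against 8h, 0 of these 11 and 0 of 15 glucose signalling genes passed in the limma fit, beside 3.63% of all tested genes.

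Of the 15 genes that carry the glucose signal to carrier promoters, 4 rose and 4 fell between 4h and 8h (median -0.040), near the 30.7% higher and 33.9% lower over all tested genes. RGT1, for the repressor of hexose carrier genes, fell by 3.62 ± 0.45, SNF4, for a subunit of the Snf1 kinase, by 2.67 ± 0.24, and REG1, for a phosphatase subunit that opposes that kinase, by 1.77 ± 0.44 (adjusted p of 0.003 or lower, limma). These 3 were also called lower on the other scales. STD1, for a co-regulator of Rgt1, rose by 2.70 ± 0.37, but was at 0.062 with S. pombe centring (adjusted p = 0.928). On that scale 13 of the 15 fell and 0 rose, beside 4326 lower and 257 higher of all 5503 tested genes.

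Genes for polyol use were few. Of 3 tested apart from HXT13, 0 rose and 1 fell between 4h and 8h, beside 30.7% higher and 33.9% lower over all tested genes. The sorbitol dehydrogenase gene SOR2 fell by 1.34 ± 0.31 (adjusted p = 0.00183, limma). The mannitol dehydrogenase gene DSF1 was at 0.56 ± 0.29 (adjusted p = 0.103). It rose by 1.51 ± 0.29 at 4h against 0h (adjusted p = 0.00245), where HXT13 was at 0.82 ± 0.45 and did not pass.

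**Figure D4:**
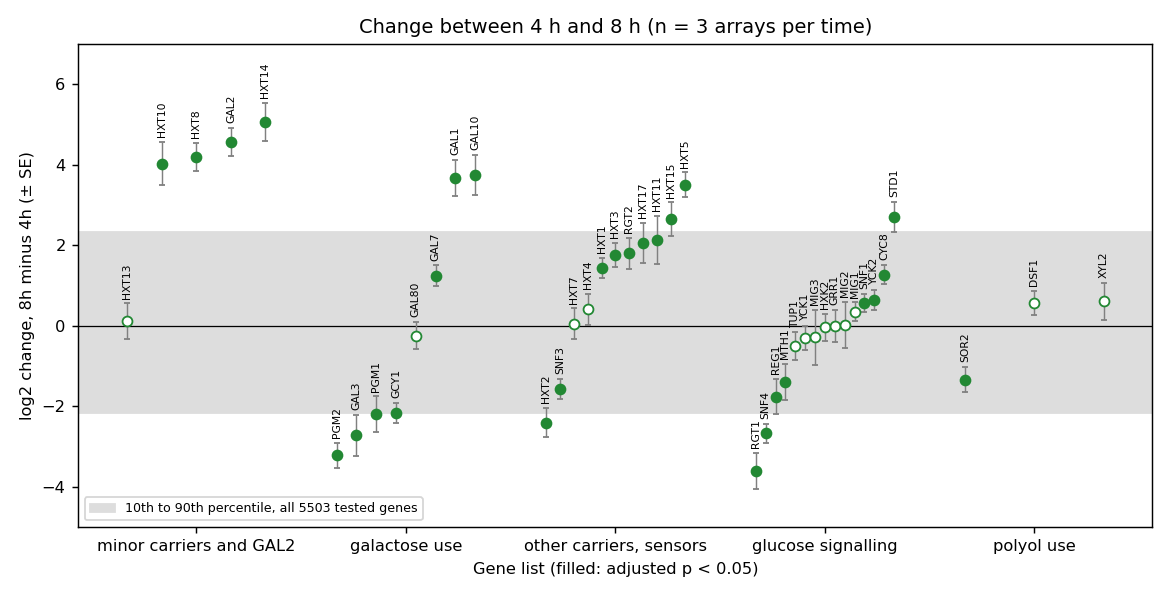
Difference in normalised log2 signal between 4h and 8h (8h minus 4h) for the 5 genes and 4 lists of related genes, with limma standard errors and 3 arrays per time. Filled points passed an adjusted p of 0.05, and the grey band holds the 10th to 90th percentile of all 5503 tested genes (-2.18 to 2.32). HXT8, HXT10, HXT14 and GAL2 lie above the band with GAL1, GAL10, HXT5, HXT15 and STD1. Only its late arrays brought HXT10 past the filter on dim genes.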

How the data were processed

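The authors deposited a linear intensity for each probe set of each array. The software named per the submitters' processing notes is GCOS 5.0 and MAS5, with settings not given in the sources used here. Arrays differed in overall brightness (mean with 2% trimmed at each end, 22.6 to 377), so log2 values were quantile normalised over the tested genes. This mean was 100.07 to 100.08 on the 4h arrays and 134 to 377 on the 0h arrays. It was 22.6 to 38.1 on the 8h arrays and 38.5 to 51.1 on the 30h arrays. Only the 4h arrays thus shared a common brightness, and the deposited scale is not the same at all times.

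Of 10928 probe sets, 5685 named 1 S. cerevisiae gene and 4916 named 1 S. pombe gene in a platform annotation that can be old. A further 46 named several genes, none of them a member, 68 named none and 213 were controls. Probe sets without a shared-probe ending, then the brighter, stood for a gene. Genes with a mean log2 signal above the 95th percentile of S. pombe means (a signal of 7.74) were tested, 5503 of 5635, and all 5 members passed. On the 6 early arrays alone HXT10 would not have passed.

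Differences were tested two-sided in R 4.3.3 with limma 3.58.1 (lmFit, then eBayes with a trend) in a model of the 4 times on all 12 arrays. P-values were adjusted by Benjamini-Hochberg over the tested genes of each comparison, and a gene was called below 0.05. One residual spread per gene served all times, although HXT10 and HXT14 varied most at 0h. The code was tested on simulated data that held no change in SD between early and late arrays and no background floor. That test therefore does not cover those features. The members and lists were chosen with earlier results of these data known. Named genes were the members, up to 4 called genes of a list with the largest change, and the 3 most correlated genes. GAL7, DSF1 and other genes outside that rule were named after their values were seen. Alternatives covered the scaling, pseudocounts of 16 and 100, the filter, the probe set, the trend, a replicate block and each array left out. Sequences and genome positions were not used here. Sample letters were checked for pairing: deviations of same-letter samples from their time means correlated at over 0.1 in 2 of 18 pairs of arrays. Those 2 paired 8h with 30h, for letter A (0.188) and letter C (0.237). The number of arrays limits precision.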

Additional observations from a re-analysis of the deposited data

How the results depend on the processing

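The 16 early-to-late differences of HXT8, HXT10, HXT14 and GAL2 kept their direction and their call in all 360 alternative fits. They ranged from 1.102 to 6.12 (highest adjusted p = 0.0059, limma). The sizes shrank most with pseudocounts of 16 and 100, with S. pombe centring and on the deposited scale. All these fits reused the same arrays and their split between early and late, so they are not separate evidence. HXT10 passed the filter on dim genes only through the late arrays. The other results were less firm. At 4h against 0h, 2 members were called on the deposited scale, 1 with S. pombe centring and 1 with 0h A and 0h C left out together, an alternative chosen after seeing the data, against 0. Signs turned at 4h against 0h on the deposited scale for HXT8 (-1.03), HXT10 (-1.20) and HXT13 (-0.34). They also turned with pseudocounts of 16 and 100 for HXT10 (-0.089 and -0.034), and for HXT14 with S. pombe centring (0.058) and without 0h A and C (0.48). S. pombe centring turned HXT13 at 8h against 4h (-1.14) and at 30h against 4h (-0.54). The deposited scale turned it at 8h against 0h (-0.15). GAL2 at 30h against 8h turned on the deposited scale (0.38) and with S. pombe centring (0.29). Leaving out 1 array gave -0.016 to 0.37 for HXT8, -0.60 to 0.78 for HXT10 and -1.07 to 0.10 for HXT14 at 4h against 0h. It gave -0.16 to 0.55 at 8h against 4h and -0.23 to 0.47 at 30h against 8h for HXT13, and -0.62 to 0.017 for GAL2 at 30h against 8h. HXT13 at 8h against 0h was called with median centring (2.18, adjusted p = 0.000747), with eBayes without a trend and without 8h A (1.39, adjusted p = 0.0125). The cause of these shifts was not tested. Calls over all genes at 30h against 8h were 200, but 5 on the deposited scale, 49 with median centring, 5 with S. pombe centring, 568 without 0h A, 415 without 0h A and C, 130 without 4h B or 4h C and 125 without 30h B. At 4h against 0h they were 1295, but 2654 on the deposited scale, 673 to 740 without a 4h array and 820 without 0h A and C. With the replicate letter as a block, 4 members were called at 8h against 4h, as without it, and no other member count changed. What samples of the same letter share is not stated in the labels. Of the 72 values, 63 passed the 90th and 44 the 99th S. pombe percentile, and 54 to 59 remained above the 95th with 1 array left out. Signal over background limits the early levels of HXT8 at 0h and of HXT10, HXT13 and HXT14, each of which missed the threshold on at least 1 early array.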

Other observations

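HXT9, another carrier of the family, was left out as dim. Nearly all of its signals lay under the background, so no direction is given for it. It was above background on 1 of 12 arrays, at 0.173 to 1.41 times the threshold on the early arrays and 0.012 to 0.095 times on the late ones. It was picked after its values were seen and was not tested.

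Of 130 genes above background on no early array, 25 (19.2%) were above it on all 6 late arrays. Of 263 genes that missed the background on at least 1 array of both early times, as HXT10 and HXT14 did, 114 (43.3%) were above it on all 6 late arrays.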
